A study of Mus musculus with 16 samples.

Results

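The genes described are 9 components of transforming growth factor beta (TGF-beta) signalling, chosen by symbol from the 22058 protein-coding genes of the count table. They are the ligands Tgfb1, Tgfb2 and Tgfb3, the activator Nrros, the receptors Tgfbr1 and Tgfbr2, and the intracellular effectors Smad2, Smad3 and Smad7. Each was followed across cells sorted from whole brain, to find which population held the messenger RNA of ligand, activator, receptor and effector. The groups were CD11b+ microglia, EAAT2+ astrocytes, Thy1+ neurons and an input, with 4 libraries each. All came from the same 4 untreated male C57BL/6 wildtype mice, numbered 2 to 5 in the sample descriptions, so that the libraries of a group are separate animals and every animal contributed to every group. Live cells of perfused, dissociated brains were sorted after O1+ and CD31+ cells, which are mostly oligodendrocytes and endothelial cells, had been gated out. The input libraries, titled pooled by the submitters, were taken at a step that the labels do not state, and the age of the mice is not given either.

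TGF-beta is secreted in a latent form, in which the mature cytokine stays wrapped in its own propeptide and is tethered to a carrier protein in the matrix or on a cell surface. Once released, usually through integrins that pull on the propeptide, the ligand joins the type 2 receptor Tgfbr2 with the type 1 receptor Tgfbr1, whose kinase phosphorylates Smad2 and Smad3. In the brain, TGF-beta signalling is known for maintaining the homeostatic state of microglia, and Nrros is the carrier that holds latent Tgfb1 on the surface of microglia and other myeloid cells.

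Messenger RNA was read from its 3′ end, so that a transcript gave at most 1 tag whatever its length, and values are CPM, the counts per 1000000 of the library after TMM scaling. Library totals were 191236 to 1413564 counts in microglia, 211087 to 710828 in astrocytes, 116761 to 393199 in neurons and 1702665 to 2811080 in input. Every deposited count of 100 or more was rounded to 2 significant digits, an error of up to 5%. The label of each sort was checked against marker genes. The summed CPM of 19 microglia markers was 41000 to 67300 in microglia, 2650 to 8610 in astrocytes, 2870 to 11100 in neurons and 9630 to 11400 in input, and none of the 19 was at 0 in any group. The sum of 15 astrocyte markers was 35900 to 54200 in astrocytes, and that of 12 neuron markers was 3200 to 5360 in neurons, each the highest of the 4 groups. The astrocyte-marker sum was 3270 to 9970 CPM in neurons, 1770 to 5660 in microglia and 8900 to 16000 in input. Some libraries stood apart. Astrocytes of animals 3 and 5 carried microglia-marker sums of 8610 and 8480, against 2650 and 2840 in animals 2 and 4, and neurons of animals 2 and 4 carried 9340 and 11100, against 4080 and 2870 in animals 3 and 5. Neurons of animal 5 also held 79700 CPM over 4 pituitary hormone and lineage genes. All libraries of the CD11b+ sort, called microglia here, were also high in 7 markers of border macrophages. These summed to 721 to 1160 CPM, against 196 to 274 CPM in input. The part of such macrophages in the values of that sort was not tested. In such bulk samples, fewer cells of a type and less RNA per cell cannot be told apart.

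Microglia stood apart from the other groups in the ligand they carried and in the receptors. Against input, microglia were higher for 4 of the 8 members that passed the filter on low counts (Tgfb1, Nrros, Tgfbr1 and Tgfbr2) and lower for Tgfb2 (24.1% of all genes were called higher and 29.8% lower), in edgeR's quasi-likelihood test with Benjamini-Hochberg adjustment over 9091 genes at 0.05. These 5 calls of 8 stand beside 53.9% of all genes called in that comparison, a share near that background. Between microglia and input 6 of 8 tested members did not overlap (52.4% of all genes), between astrocytes and input 2 (37.8%), between neurons and input 2 (28.6%) and between astrocytes and neurons 0 (19.9%). The median log2 fold change was 1.27 over the 8 members, against -0.04 over all genes tested. In astrocytes 2 of 8 members were called, both lower than input (35.4% of all genes were called in either direction), and in neurons 3 of 8, all lower (24.9%). The count of members higher than input was 0 in both sorts by edgeR, at an unadjusted p under 0.05 as well, and 0 by DESeq2. The 3 comparisons share the input libraries. Tgfb3 failed the filter and was not tested.

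**Figure D1:**
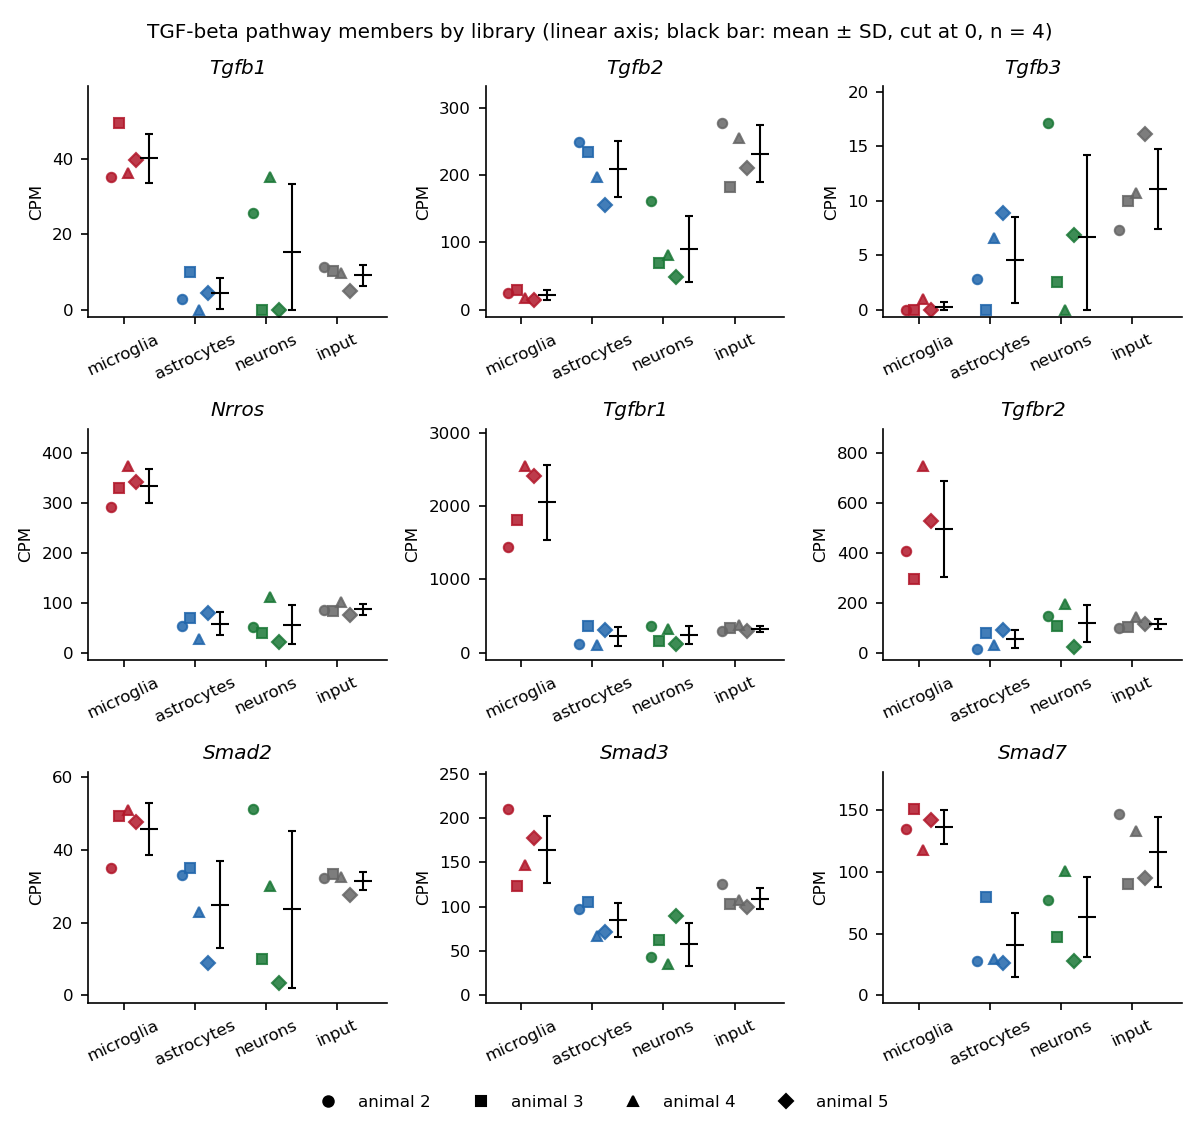
CPM of the 9 members in each of the 16 libraries (y axis, linear; x axis, sorted group and input), with 1 symbol per animal and the mean ± SD of 4 libraries in black. Tgfb1, Nrros, Tgfbr1 and Tgfbr2 are highest in microglia by their means, Tgfb2 is lowest there (21.4 ± 7.18 CPM against 232 ± 42.6 CPM in input), and the group means of the 3 Smads lie closer together.

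The proximal promoters of the 5 members called between microglia and input are shown because the 4 that were higher in microglia moved together there, and Tgfb2 is set beside them as the one that was lower. Sequences are from RefSeq on GRCm38.p6, 250 bases before to 50 bases after the annotated start, and 6 of the 9 members had an entry (for Tgfbr1, the first of its starts is shown). Capitals mark 3 motifs read on either strand: AGGAA, the core bound by Ets factors such as PU.1; a Smad-binding element, CAGAC; and the TATA box, whose letters are TATAAA.
Tgfb1, chr7:25686752-25687051, plus strand: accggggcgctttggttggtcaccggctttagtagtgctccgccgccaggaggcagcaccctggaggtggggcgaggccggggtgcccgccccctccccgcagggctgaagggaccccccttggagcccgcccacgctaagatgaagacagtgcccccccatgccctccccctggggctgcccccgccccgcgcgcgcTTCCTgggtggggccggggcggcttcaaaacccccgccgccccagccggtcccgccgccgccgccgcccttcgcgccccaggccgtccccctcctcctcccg
Tgfb2, chr1:186705940-186706239, minus strand: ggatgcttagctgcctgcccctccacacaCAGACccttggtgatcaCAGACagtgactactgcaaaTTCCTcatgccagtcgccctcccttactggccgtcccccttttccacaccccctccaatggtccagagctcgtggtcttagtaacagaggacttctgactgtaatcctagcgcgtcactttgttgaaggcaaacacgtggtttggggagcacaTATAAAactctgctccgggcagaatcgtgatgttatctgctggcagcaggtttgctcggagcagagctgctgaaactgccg
Nrros, chr16:32165545-32165844, minus strand: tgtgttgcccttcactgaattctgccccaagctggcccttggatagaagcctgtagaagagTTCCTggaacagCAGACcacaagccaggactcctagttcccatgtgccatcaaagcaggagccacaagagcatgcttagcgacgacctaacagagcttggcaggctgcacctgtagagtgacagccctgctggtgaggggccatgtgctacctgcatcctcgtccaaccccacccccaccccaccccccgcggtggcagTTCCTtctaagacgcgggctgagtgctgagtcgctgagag
Tgfbr1, chr4:47352972-47353271, plus strand: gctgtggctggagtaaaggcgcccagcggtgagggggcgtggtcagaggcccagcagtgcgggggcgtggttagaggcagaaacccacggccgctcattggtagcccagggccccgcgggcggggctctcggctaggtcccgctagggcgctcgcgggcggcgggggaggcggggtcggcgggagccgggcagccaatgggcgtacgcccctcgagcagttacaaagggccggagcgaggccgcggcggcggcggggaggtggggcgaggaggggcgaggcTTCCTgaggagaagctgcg
Tgfbr2, chr9:116175314-116175613, minus strand: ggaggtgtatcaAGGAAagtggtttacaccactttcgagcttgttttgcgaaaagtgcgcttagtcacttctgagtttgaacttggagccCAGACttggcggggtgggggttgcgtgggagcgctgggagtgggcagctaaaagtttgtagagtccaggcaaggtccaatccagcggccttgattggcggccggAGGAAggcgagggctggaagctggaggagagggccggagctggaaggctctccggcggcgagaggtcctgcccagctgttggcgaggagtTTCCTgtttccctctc
The longer motifs searched on both strands, GAGGAAGT (held by 3.2% of 32851 promoters), its core AGGAAGT (9.35%) and the Smad palindrome GTCTAGAC (0.213%), were in none of the members' windows, which says only that these letters are not there. The shorter motifs were added after that was seen, and their matches are common: AGGAA was in 66.7% and CAGAC in 49.6% of promoters. All 5 windows hold at least 1 AGGAA on one strand. Tgfb2 has TATAAA at position -31 from its start, a motif held by 13.6% of promoters, while the Tgfb1 window, at 77.0% G and C, has none.

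Of the ligands, Tgfb1 was the one higher in microglia. Tgfb1 (chr7:25687002-25705077, plus strand) encodes the TGF-beta best known for acting on immune cells. It had 35.1, 49.4, 36.3 and 39.7 CPM in microglia of animals 2, 3, 4 and 5, against 11.4, 10.3, 9.71 and 4.96 CPM in input. All 4 microglia libraries lay above all 4 input libraries. The log2 fold change was 2.13 ± 0.49 (SE; adjusted p = 0.000424, edgeR quasi-likelihood test with Benjamini-Hochberg adjustment).

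In astrocytes Tgfb1 was at 2.77, 9.99, 0 and 4.43 CPM, from 4 counts in all, and its astrocytes were lower than input in all 4 animals without passing the test (log2 fold change -1.57 ± 0.91, adjusted p = 0.183, edgeR). Neurons were split: 25.6 and 35.2 CPM in animals 2 and 4, and 0 in animals 3 and 5, from 10 counts in all. The neuron libraries with Tgfb1 were those with the higher microglia-marker sums, 9340 and 11100 CPM. Per 1000 CPM of microglia markers, Tgfb1 was 2.74 and 3.18 CPM in them, from 3 and 7 counts. On that scale it was 0.54 to 1.2 CPM in microglia. The same neuron libraries held 1490 and 1510 CPM of 9 lymphocyte markers, against 1230 and 485 CPM in neurons 3 and 5. The part of microglia or lymphocyte RNA in the Tgfb1 of neurons was not tested. A count of 0 allowed up to 7.5 CPM in neurons of animal 3, 10.3 CPM in neurons of animal 5 and 4.92 CPM in astrocytes of animal 4 (3 counts per library; counting error only). Microglia exceeded astrocytes by 3.7 ± 0.81 on the log2 scale (adjusted p = 0.000304) and neurons by 1.88 ± 0.69 (adjusted p = 0.0267), both by edgeR. The value against astrocytes was 4.51 without astrocytes 3 and 2.96 without astrocytes 4. That against neurons was 1.24 and no longer passed the test without neurons 3 (adjusted p = 0.15, edgeR), was 1.41 without neurons 5 (adjusted p = 0.0989, edgeR), and was 3.33 without neurons 4. It also missed the threshold without microglia 3 (adjusted p = 0.0582) or microglia 5 (adjusted p = 0.0508), without animal 5 (1.36, adjusted p = 0.167), in the fit to these 2 groups (1.66, adjusted p = 0.0796) and against a 2-fold change (adjusted p = 0.133), by edgeR. B9d2 is a close neighbour of Tgfb1 and was counted as a gene of its own.

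Tgfb2 ran the other way. Tgfb2 (chr1:186622792-186705989, minus strand) encodes a ligand known for its roles in development and in glia and neurons. It had 25.1, 29.6, 16.7 and 14.2 CPM in microglia, against 277, 183, 255 and 211 CPM in input, with a wide gap between the groups. The log2 fold change was -3.54 ± 0.33 (adjusted p = 1.27e-09, edgeR), the largest change of the 8 tested members in that comparison; Tgfb3, which was not tested, is given by its counts after it.

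Astrocytes held Tgfb2 at 249, 235, 197 and 155 CPM, a range that overlapped that of input. The difference was -0.15 ± 0.27 on the log2 scale (95% interval -0.71 to 0.41, adjusted p = 0.71, edgeR), so that a loss or a gain of more than 1 log2 unit lies outside the interval. Neurons held 162, 70, 80.5 and 48.1 CPM and were all below the lowest input library, with a log2 fold change of -1.49 ± 0.31 (adjusted p = 0.00069, edgeR). The same neuron libraries carried astrocyte-marker sums of 9210, 4710, 9970 and 3270 CPM. The part of astrocyte RNA in the Tgfb2 of neurons was not tested. Astrocytes exceeded neurons in all 4 animals, by 1.34 ± 0.32 (adjusted p = 0.00182, edgeR), although their ranges met at 155 and 162 CPM. That was the one member of 8 called between astrocytes and neurons, where 28.5% of all genes were called. Against microglia, the log2 fold change of microglia was -3.39 ± 0.34 relative to astrocytes (adjusted p = 1.27e-09) and -2.05 ± 0.37 relative to neurons (adjusted p = 3.7e-05), both by edgeR. In order of the mean, Tgfb2 was highest in input and astrocytes, which overlapped, then in neurons, then in microglia, which overlapped with no other group.

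Tgfb2 was also set against the summed astrocyte markers of the same library. Per 1000 CPM of those markers it was 4.43 to 9.42 CPM in microglia, 3.82 to 6.54 in astrocytes, 8.07 to 17.6 in neurons and 11.4 to 31.2 in input. Input thus held more Tgfb2 per astrocyte marker than any astrocyte library. The input also carried marker sums that the sorts were low in: 3240 to 4140 CPM of 10 endothelial markers, against 200 to 566 in microglia, 243 to 917 in astrocytes and 574 to 1000 in neurons, and 1570 to 1840 CPM of 8 mural markers, against 89.4 to 240, 354 to 585 and 361 to 658 CPM in microglia, astrocytes and neurons. Other marker sums were higher in input than in astrocytes too. They were 4320 to 12300 against 845 to 2740 CPM for 5 choroid plexus markers, and 6120 to 7720 against 995 to 2350 CPM for 10 oligodendrocyte markers. The part of any of those cells in the Tgfb2 of the input was not tested.

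Tgfb3 (chr12:86056745-86079041, minus strand), the third ligand, was at 0, 0, 0.982 and 0 CPM in microglia, 2.77, 0, 6.55 and 8.86 CPM in astrocytes, 17.1, 2.5, 0 and 6.88 CPM in neurons and 7.34, 9.99, 10.7 and 16.1 CPM in input. Microglia held 1 count in all, against 108 in input, and were measured below input in all 4 animals. In microglia of animal 2 a count of 0 allowed up to 15.0 CPM (3 counts; counting error only), above the 7.34 CPM of its input. Pooled over libraries, 1 count against 108 is a 35.5-fold lower level in microglia than in input (exact 95% interval 6.24 to 1420, counting error only). Astrocytes, with 7 counts, were 2.19-fold lower than input (1.03 to 5.59), and neurons, with 5 counts, 2.21-fold lower (0.919 to 6.95). The 3′ end of Tgfb3 overlaps Ttll5 on the other strand, and whether the counting used strand is not given in the sources used here, so the counts of these genes are uncertain.

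The make-up of the ligand tags turned with the group. Tgfb1 was 68.1% of the 191 ligand counts in microglia (exact 95% interval 60.9 to 74.6; 58.3 to 73.7% over the libraries), 1.32% of 303 in astrocytes, 10.9% of 92 in neurons and 3.69% of 2438 in input. Tgfb2 was 31.4% in microglia, 96.4% in astrocytes (93.6 to 98.2), 83.7% in neurons (74.5 to 90.6) and 91.9% in input. Every microglia library had more Tgfb1 than Tgfb2 counts, and every library of the other groups had more Tgfb2 than Tgfb1. Each transcript gives tags at its 3′ end only, so the shares were not scaled by length.

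**Figure D2:**
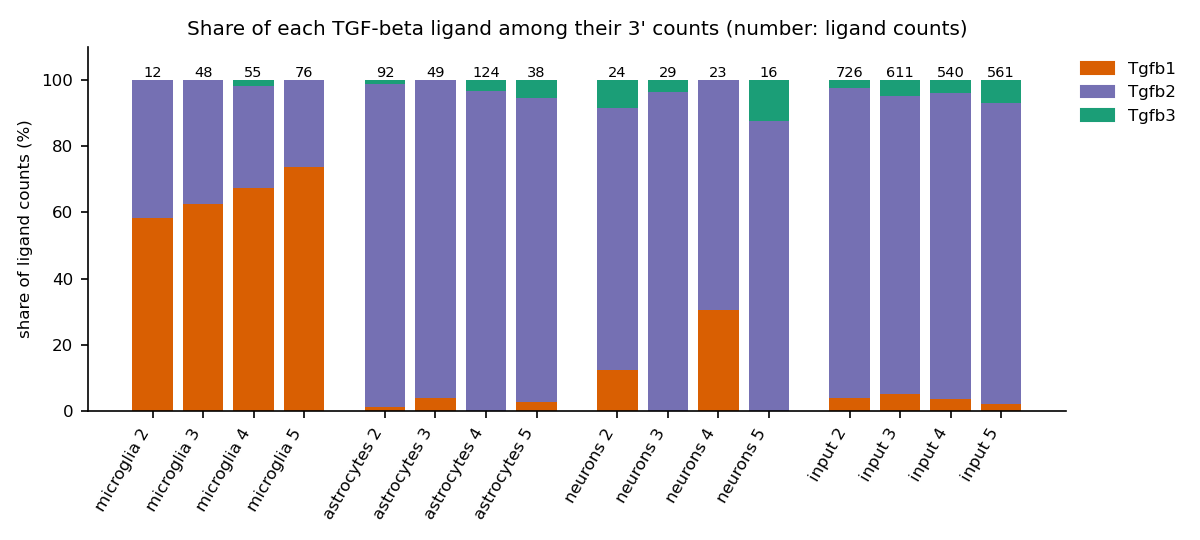
Share of Tgfb1, Tgfb2 and Tgfb3 in the ligand counts of each of the 16 libraries (y axis, percent; the number above a bar is its ligand counts). Tgfb1 makes up 58.3 to 73.7% of the bars of microglia and at most 30.4% of a bar of any other group, where Tgfb2 dominates.

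Nrros (chr16:32142785-32165594, minus strand), the carrier that presents latent Tgfb1 on myeloid cells, was at 291, 329, 373 and 341 CPM in microglia, against 85.6, 83.3, 102 and 74.3 CPM in input. Its ranges in microglia and in each other group were far apart. Microglia were higher than input by 1.96 ± 0.29 on the log2 scale (adjusted p = 1.59e-06), than astrocytes by 2.64 ± 0.34 (adjusted p = 1.04e-07) and than neurons by 2.67 ± 0.35 (adjusted p = 3.59e-07), all by edgeR. The last was 3.27 without neurons 4.

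Astrocytes had 52.5, 69.9, 27.9 and 79.7 CPM of Nrros and neurons 51.3, 40, 111 and 20.6 CPM, both with libraries above and below those of the other. Neither passed the test against input (-0.69 ± 0.34 with adjusted p = 0.113 in astrocytes, and -0.72 ± 0.36 with adjusted p = 0.14 in neurons, edgeR). Neurons were lower by the test without neurons 4, the neuron library with the most Nrros (-1.31, adjusted p = 0.00973), and astrocytes without astrocytes 3 and 5 (-1.03, adjusted p = 0.0447) or with library totals in place of TMM (-1.0, adjusted p = 0.0218), all by edgeR. Nrros thus followed an order of microglia first and then input, astrocytes and neurons, of which the last 3 overlapped. Set per 1000 CPM of microglia markers, Nrros was not highest in microglia. It was 5.49 to 8.03 CPM there, 8.12 to 19.8 in astrocytes, 5.49 to 9.99 in neurons and 7.23 to 8.98 in input. The part of microglia RNA in the Nrros of astrocytes and neurons was not tested.

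By their means in microglia, the receptors had the highest CPM of the 9 members, on a scale of 3′ tags with no scaling by length, although Nrros was above Tgfbr2 in animal 3. Tgfbr1 (chr4:47353222-47414931, plus strand), the type 1 receptor kinase, was at 1450, 1810, 2550 and 2410 CPM in microglia, against 298, 333, 383 and 289 CPM in input. The lowest microglia library was several times the highest library of any other group. The log2 fold change was 2.66 ± 0.36 against input (adjusted p = 3.72e-07), 3.28 ± 0.38 against astrocytes (adjusted p = 1.82e-08) and 3.16 ± 0.38 against neurons (adjusted p = 9.09e-08), all by edgeR.

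Astrocytes held Tgfbr1 at 111, 365, 100 and 306 CPM, high in animals 3 and 5. Neurons held 359, 153, 327 and 120 CPM, high in animals 2 and 4. These were the libraries with the higher microglia-marker sums in each group. Set per 1000 CPM of microglia markers, Tgfbr1 was 27.4 to 44.2 CPM in microglia, 35.2 to 42.3 in astrocytes, 29.5 to 42.0 in neurons and 28.1 to 34.6 in input. The part of microglia RNA in the Tgfbr1 of astrocytes and neurons was not tested. Against input, neither sort passed the test (-0.61 ± 0.36 with adjusted p = 0.186 in astrocytes, and -0.5 ± 0.36 with adjusted p = 0.336 in neurons, edgeR). Without astrocytes 3 the astrocyte value was -0.99 (adjusted p = 0.0412, edgeR), and without astrocytes 3 and 5 it was -1.5 (adjusted p = 0.00311, edgeR).

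Tgfbr2 (chr9:116084293-116175360, minus strand), the type 2 receptor that binds ligand first, was at 406, 296, 746 and 525 CPM in microglia, against 97.9, 103, 143 and 116 CPM in input. All 4 microglia libraries exceeded every other library of the series. The log2 fold change was 2.11 ± 0.38 against input (adjusted p = 2.29e-05), 3.39 ± 0.45 against astrocytes (adjusted p = 2.03e-07) and 2.16 ± 0.42 against neurons (adjusted p = 9.65e-05), all by edgeR.

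In astrocytes Tgfbr2 was at 13.8, 79.9, 29.5 and 88.6 CPM, all below the lowest input library, and fell by 1.28 ± 0.45 on the log2 scale against input (adjusted p = 0.0261, edgeR). The call was lost without astrocytes 2 (-0.86, adjusted p = 0.149), astrocytes 4 (-0.9, adjusted p = 0.171) or input 4 (-1.16, adjusted p = 0.0661), all by edgeR, and in DESeq2 (-1.09, adjusted p = 0.0777), and the value was -2.19 without astrocytes 3 and 5. Neurons held 145, 105, 196 and 20.6 CPM, 3 of 4 above the input library of the same animal, with a difference from input of -0.05 ± 0.42 (95% interval -0.9 to 0.8, adjusted p = 0.95, edgeR). Per 1000 CPM of microglia markers, Tgfbr2 was 7.23 to 11.1 CPM in microglia, 5.21 to 10.4 in astrocytes, 7.19 to 25.7 in neurons and 9.39 to 12.6 in input. In neurons 2, 3 and 4 it was above every other library on that scale, at 15.6, 25.7 and 17.7. Neurons also carried 485 to 1510 CPM of 9 lymphocyte markers, against at most 133 CPM in any library of the other groups. The part of those cells in neuronal Tgfbr2 was not tested. Astrocytes against neurons gave -1.23 ± 0.49 (adjusted p = 0.0601, edgeR), which passed under 8 of 18 alternatives and became -2.01 (adjusted p = 0.00225, edgeR) without animal 5.

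**Figure D3:**
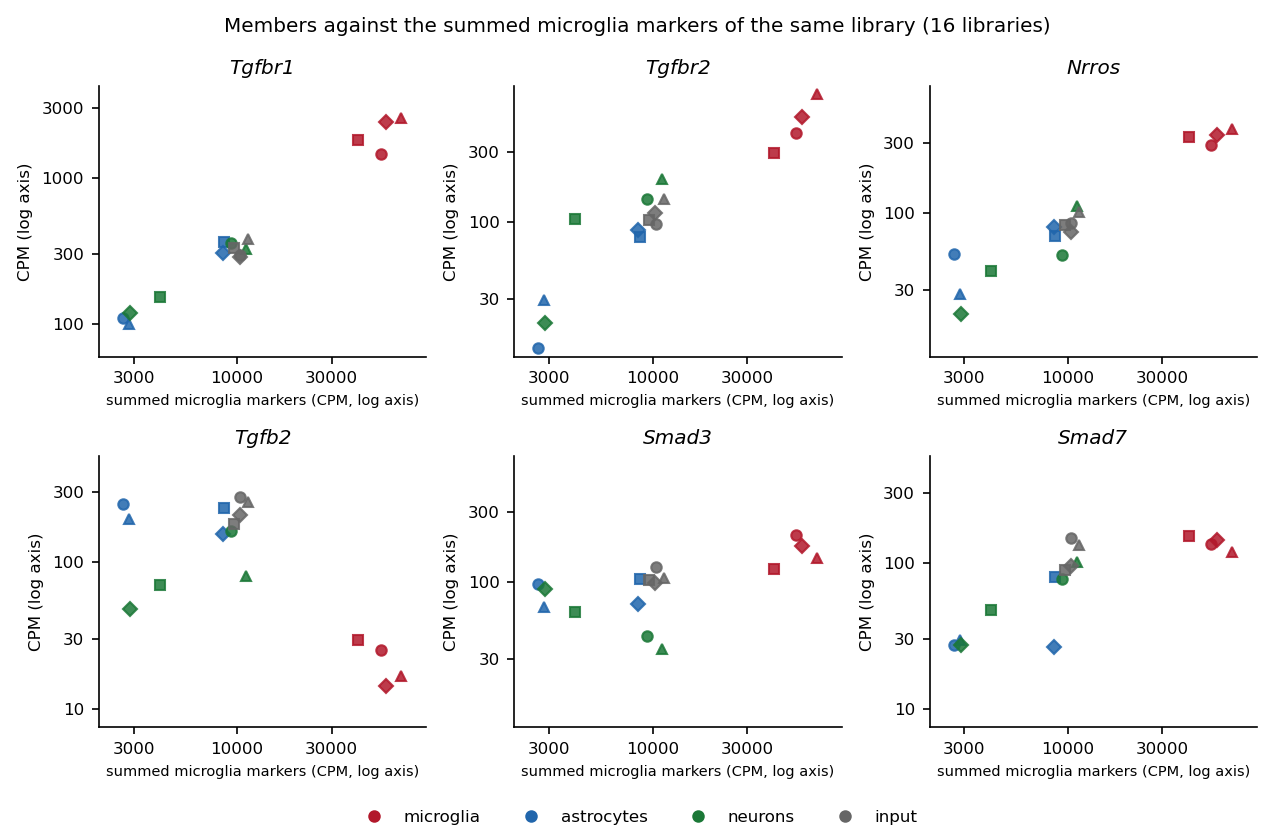
CPM of 6 members (y axes, log scale) against the summed CPM of 19 microglia markers in the same library (x axes, log scale), with groups by colour and animals by the symbols used for CPM by library. Tgfbr1 rises with the marker sum across all 16 libraries, at 27.4 to 44.2 CPM per 1000 marker CPM, whereas Tgfb2 is lowest where the sum is highest and Smad3 stays within 35.2 to 210 CPM.

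None of the 3 effectors passed edgeR's adjusted test between microglia and input. At an unadjusted p under 0.05 Smad3 did, and DESeq2 called Smad2 and Smad3 higher in microglia. Smad3 (chr9:63646767-63757994, minus strand), a receptor-activated Smad that binds DNA, was at 210, 123, 147 and 177 CPM in microglia, against 126, 103, 107 and 99.1 CPM in input. Microglia were higher in all 4 animals, but the ranges met, and the log2 fold change of 0.57 ± 0.25 (95% interval 0.05 to 1.09) narrowly missed the threshold (adjusted p = 0.0576, edgeR). It passed under 8 of 18 alternatives, among them DESeq2 (0.64, adjusted p = 0.0124) and the fits without microglia 2, 3 or 4 (0.6 to 0.8). Astrocytes had 96.8, 105, 67.2 and 70.9 CPM and neurons 42.7, 62.5, 35.2 and 89.4 CPM. Microglia exceeded astrocytes by 0.95 ± 0.28 (adjusted p = 0.00582) and neurons by 1.42 ± 0.3 (adjusted p = 0.000292), both by edgeR, without overlap. Neurons were lower than input by the test (-0.85 ± 0.3, adjusted p = 0.0353, edgeR), but with animal as a block the adjusted p was 0.0503 (edgeR), and the call was lost under 13 of 18 alternatives, including those without neurons 2, 3 or 4 and without input 2, 3 or 4 (-0.69 to -0.9). Relative to microglia markers, Smad3 was lowest in microglia, at 2.19 to 3.97 CPM per 1000, against 8.36 to 36.5 in astrocytes, 3.18 to 31.2 in neurons and 9.43 to 12.1 in input.

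Smad2 (chr18:76241580-76305731, plus strand), the partner of Smad3 downstream of the same receptors, was at 35.1, 49.4, 51.1 and 47.6 CPM in microglia, against 32.2, 33.3, 32.7 and 27.7 CPM in input. Although the ranges did not overlap, the log2 fold change of 0.58 ± 0.35 did not pass (adjusted p = 0.168, edgeR). Astrocytes had 33.2, 35, 22.9 and 8.86 CPM and neurons 51.3, 10, 30.2 and 3.44 CPM, so that neurons spanned the widest range of the 4 groups. Microglia exceeded neurons by 1.36 ± 0.5 (adjusted p = 0.0257, edgeR), which was lost without neurons 3 (1.06, adjusted p = 0.127), neurons 5 (0.98, adjusted p = 0.115) or microglia 5 (1.36, adjusted p = 0.0505), without animal 5 (0.91, adjusted p = 0.2) and in the fit to these 2 groups (1.12, adjusted p = 0.117), all by edgeR. Against astrocytes the value was 0.91 ± 0.43 (adjusted p = 0.0818, edgeR).

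Smad7 (chr18:75367529-75395935, plus strand), the inhibitory Smad that TGF-beta signalling itself induces and that turns the receptors over, was at 135, 151, 118 and 142 CPM in microglia, against 147, 89.9, 133 and 95 CPM in input. Microglia were above the input of the same animal in 2 of 4 animals, and the difference was 0.23 ± 0.29 (95% interval -0.37 to 0.83, adjusted p = 0.525, edgeR). Astrocytes had 27.7, 79.9, 29.5 and 26.6 CPM, all below the lowest input library, and fell by 1.61 ± 0.35 against input (adjusted p = 0.00068, edgeR). Astrocytes 3, the highest, with 16 counts, had a microglia-marker sum of 8610 CPM, and astrocytes 5, the lowest, with 6 counts, one of 8480 CPM. The part of microglia RNA in the Smad7 of astrocytes was not tested. Neurons had 76.9, 47.5, 101 and 27.5 CPM, below the input of the same animal in all 4, with -0.97 ± 0.35 (adjusted p = 0.0393, edgeR). That call was lost without neurons 3 (-0.85, adjusted p = 0.145), neurons 5 (-0.71, adjusted p = 0.162), input 2 (-0.85, adjusted p = 0.114) or input 4 (-0.92, adjusted p = 0.0891), and with animal as a block (adjusted p = 0.0537), all by edgeR. It was lost under 10 of 18 alternatives in all, among them RLE scaling (adjusted p = 0.0859, edgeR), the fit without animal 5 (adjusted p = 0.176, edgeR) and DESeq2 (adjusted p = 0.0713). Microglia exceeded astrocytes by 1.85 ± 0.36 (adjusted p = 7.9e-05) and neurons by 1.21 ± 0.36 (adjusted p = 0.00635), both by edgeR. The second of these was lost without animal 5 (0.91, adjusted p = 0.0784, edgeR).

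**Figure D4:**
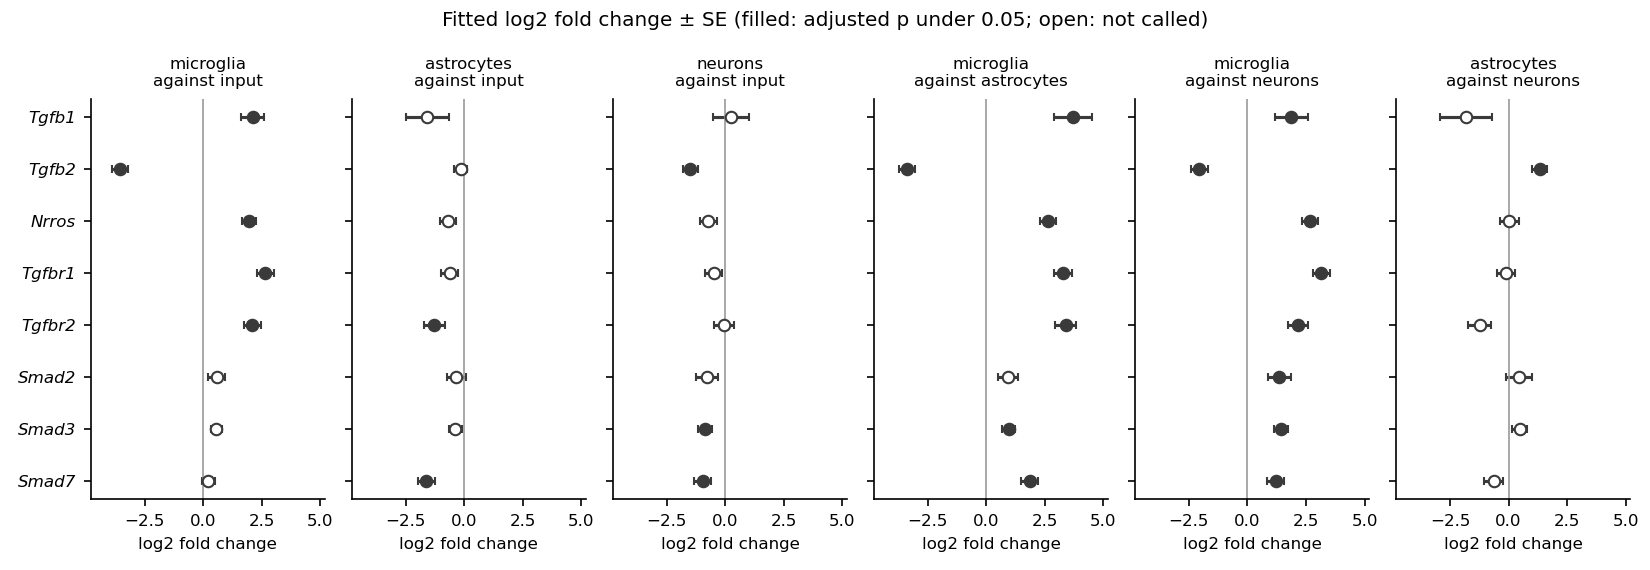
Fitted log2 fold change ± SE of the 8 tested members (rows) in the 6 comparisons (panels), with filled points for adjusted p under 0.05. Microglia differ from astrocytes for 7 members and from neurons for all 8, with Tgfb2 alone lower in microglia, and astrocytes differ from neurons for Tgfb2 alone.

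Between the sorted populations, 7 of 8 members were called for microglia against astrocytes, 6 higher and 1 lower, beside 49.8% of all genes (23.8% higher and 26.1% lower). For microglia against neurons, 8 of 8 were called, 7 higher and 1 lower, beside 44.6% of all genes (20.2% higher and 24.4% lower). These shares lie above their background. All 8 tested members were free of overlap between microglia and astrocytes, beside 37.2% of all genes, and 6 did not overlap between microglia and neurons, beside 30.8%. The median log2 fold change over the 8 members was 2.25 and 1.65 in these comparisons, against -0.02 and -0.03 over all genes. Without animal 5, 5 of 8 members were called for microglia against neurons, beside 34.8% of all genes. Without astrocytes 3 and 5 the filter also let Tgfb3 in, and of the 9 members 8 were called for microglia against input (57.3% of all genes), 4 for astrocytes against input (33.1%) and 3 for astrocytes against neurons (28.9%).

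The genes tested whose CPM pattern over the 16 libraries was most like that of a member, by Pearson r of log2(CPM + 1), are given as a description, since the libraries share groups and depth. For Tgfbr1 they were Cd33, Siglech and C1qa (r = 0.989, 0.988 and 0.984), for Nrros Vsir, Entpd1 and Lpxn (0.986, 0.985 and 0.975) and for Tgfbr2 Edem1, Tnfrsf17 and Pik3cg (0.968, 0.966 and 0.961). Tgfb1 was most like Blnk, Ptprj and Cd180 (0.934, 0.93 and 0.918). Cd33, Siglech and C1qa are known as genes of microglia and other myeloid cells, and Blnk and Cd180 as genes of B cells and myeloid cells. For Tgfb2 they were Emp2, Pcdh7 and Fam213a (0.977, 0.964 and 0.957). Among the effectors they were Mbnl1, Mef2a and Runx1 for Smad7 (0.93, 0.928 and 0.923), Naip2, Zfp518a and Gart for Smad3 (0.927, 0.92 and 0.894), and Zkscan3, Ctc1 and Txndc12 for Smad2 (0.943, 0.9 and 0.892).

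Other genes that hold and release latent TGF-beta were divided between the populations. Of 14 listed, 10 were tested: 4 were higher and 4 lower in microglia than in input, 2 higher and 3 lower in astrocytes, and 4 lower in neurons. Over all genes tested, the shares called higher and lower were 24.1% and 29.8% in microglia, 16.3% and 19.1% in astrocytes, and 11.2% and 13.7% in neurons, and the list counts that follow stand beside the same shares. The list's median log2 fold changes in microglia, astrocytes and neurons were 0.26, -0.09 and -0.83, against -0.04, -0.09 and -0.11 over all genes. Itgb5, an integrin beta chain that pairs with the alpha v chain, averaged 903 ± 436 CPM in microglia, 183 ± 20.5 in astrocytes and 112 ± 57.6 in neurons, against 194 ± 26.9 in input (SD, n = 4 each), and was higher in microglia than in input by 2.2 ± 0.3 on the log2 scale (adjusted p = 4.34e-07, edgeR). Itgb8, the chain of the alpha v beta 8 integrin that activates latent TGF-beta, averaged 21.6 ± 7.65 CPM in microglia, 389 ± 32.8 in astrocytes and 70.5 ± 46.6 in neurons, against 168 ± 55.7 in input. It was lower than input in microglia (-3.05 ± 0.35, adjusted p = 3.11e-08) and higher in astrocytes (1.21 ± 0.29, adjusted p = 0.00168), both by edgeR. Carrier and integrin beta 8 chain were thus highest in different populations: Nrros in microglia, and Itgb8 in astrocytes. The membrane protease Mmp14 averaged 148 ± 30.1 CPM in microglia, 491 ± 118 in astrocytes and 112 ± 41.2 in neurons, against 83.7 ± 12.3 in input, a rise of 2.56 ± 0.26 in astrocytes (adjusted p = 3.14e-08, edgeR). Mmp14 was higher than input in microglia as well, by 0.81 ± 0.26 (adjusted p = 0.00914, edgeR). Itgb1, the most widely shared integrin beta chain, fell by 1.36 ± 0.28 in astrocytes (adjusted p = 0.000377, edgeR). Of those called in no comparison with input, the alpha v chain Itgav had log2 differences from input of 0.6 ± 0.27, -0.07 ± 0.29 and -0.77 ± 0.33 in microglia, astrocytes and neurons.

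**Figure D5:**
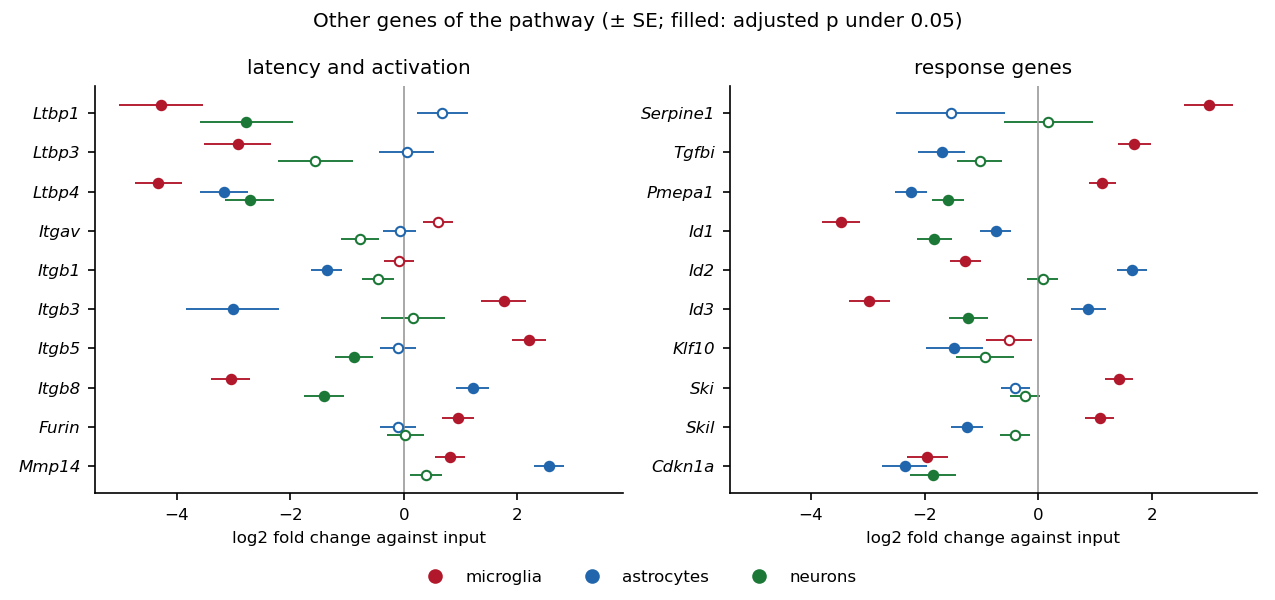
Fitted log2 fold change against input ± SE (x axes) of the tested genes of latency and activation and of the TGF-beta response list (rows), by sorted group (colours), with filled points for adjusted p under 0.05. Itgb8 and Mmp14 lie highest in astrocytes, Itgb5 and Pmepa1 highest in microglia, and Ltbp4 is lower than input in all 3 groups.

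Among 12 other receptors of the superfamily, 10 were tested, and 2 were higher and 6 lower in microglia than in input, 2 higher and 3 lower in astrocytes, and 4 lower in neurons. The 2 of 10 higher in microglia and in astrocytes lie near the shares of all genes, 24.1% and 16.3%. The median log2 fold change was -1.33 in microglia, -0.25 in astrocytes and -0.85 in neurons, beside a median in microglia of 2.39 over Tgfbr1 and Tgfbr2. The activin and bone morphogenetic protein (BMP) type 1 receptor Acvr1 averaged 95.9 ± 38.7 CPM in microglia, 81.9 ± 60.4 in astrocytes and 34.4 ± 11.7 in neurons, against 37.1 ± 4.11 in input, higher than input in microglia (1.3 ± 0.35, adjusted p = 0.00205) and astrocytes (1.03 ± 0.37, adjusted p = 0.0306) by edgeR. The BMP receptor Bmpr1b was lower than input in microglia (-3.27 ± 0.43, adjusted p = 2.55e-07) and higher in astrocytes (1.34 ± 0.31, adjusted p = 0.00108) by edgeR. The BMP receptor Bmpr1a averaged 45.1 ± 16.8 CPM in microglia against 96.9 ± 18.7 in input, lower by the test (-1.17 ± 0.35, adjusted p = 0.00508, edgeR). Bmpr2, the BMP type 2 receptor, passed in none of the 3 and averaged 269 ± 14.5 CPM in microglia, 217 ± 84.3 in astrocytes and 184 ± 86.2 in neurons, against 266 ± 12.3 in input.

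Of 12 other ligands of the superfamily, 5 were tested. All 5 were lower in microglia than in input, while 3 were higher and 1 lower in astrocytes, and 1 was lower in neurons (29.8% of all genes were lower in microglia, 16.3% higher and 19.1% lower in astrocytes, and 13.7% lower in neurons). The median log2 fold changes were -2.5, 1.15 and -1.43 in the 3 sorts. Gdf10, a growth factor of the BMP branch, averaged 15.6 ± 3.51 CPM in microglia, 291 ± 162 in astrocytes and 35.6 ± 24.6 in neurons, against 78.4 ± 11.9 in input, higher in astrocytes than in input by 1.92 ± 0.33 (adjusted p = 3.28e-05, edgeR). Gdf11 and Bmp7 were higher in astrocytes too, by 1.15 ± 0.37 and 1.32 ± 0.37 (adjusted p = 0.0164 and 0.00664, edgeR). Of 9 extracellular antagonists and binding proteins 4 were tested, and 1 was higher and 3 lower in microglia, 2 were lower in astrocytes and 3 were lower in neurons, with median log2 fold changes of -3.15, -1.4 and -2.15. Dcn, a matrix proteoglycan that binds TGF-beta and is a marker of fibroblasts, averaged 9.76 ± 4.25 CPM in microglia, 16.3 ± 7.2 in astrocytes and 27.7 ± 13.6 in neurons, against 105 ± 18.9 in input, lower than input in each sort (-3.62 ± 0.38, -2.81 ± 0.39 and -1.77 ± 0.37, edgeR adjusted p = 6.35e-09, 2.38e-06 and 0.000597). Fstl1, a secreted follistatin-like protein, had 3 counts in microglia against 570 in input, a 62.5-fold lower level (exact 95% interval 21.3 to 304, counting error only).

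Of 17 other Smads and Smad regulators, 14 were tested: 5 were higher and 5 lower in microglia than in input, 5 lower in astrocytes, and 1 higher and 2 lower in neurons. These counts lie near the shares of all genes in microglia (24.1% higher and 29.8% lower) and in neurons (11.2% and 13.7%), and the 5 lower in astrocytes stand beside 19.1%. The median log2 fold changes were -0.22, -0.73 and -0.39 in microglia, astrocytes and neurons. The nuclear corepressors Ski and Skil, which dampen Smad transcription and which the response list also holds, averaged 460 ± 40.4 and 337 ± 78.9 CPM in microglia, against 171 ± 17.8 and 160 ± 19.2 CPM in input. They were higher in microglia by 1.42 ± 0.25 and 1.08 ± 0.25 (adjusted p = 1.61e-05 and 0.000434, edgeR). Skil fell by 1.26 ± 0.28 in astrocytes (adjusted p = 0.000843, edgeR). Fkbp1a, which binds the resting type 1 receptor, fell by 1.5 ± 0.25 in microglia and by 1.08 ± 0.26 in astrocytes (adjusted p = 1.01e-05 and 0.00144, edgeR). Smad4, the shared partner of the activated Smads, passed in none of the 3 comparisons, with 148 ± 29.6 CPM in microglia, 91.3 ± 61.4 in astrocytes and 115 ± 8.43 in neurons, against 139 ± 9.72 in input.

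Of the response list, 10 of 12 genes were tested, and 5 were higher and 4 lower in microglia than in input, 2 higher and 6 lower in astrocytes, and 4 lower in neurons. Beside these stand 24.1% higher and 29.8% lower of all genes in microglia, 16.3% and 19.1% in astrocytes, and 13.7% lower in neurons. The median log2 fold changes were 0.29, -1.37 and -0.98 in microglia, astrocytes and neurons. Pmepa1, a target that feeds back on the Smads, averaged 611 ± 60.2 CPM in microglia, 59.2 ± 14.4 in astrocytes and 98 ± 36.9 in neurons, against 279 ± 38.3 in input. It was higher in microglia by 1.13 ± 0.24 (adjusted p = 0.000216) and lower in astrocytes by 2.24 ± 0.28 and in neurons by 1.59 ± 0.28 (adjusted p = 5.88e-07 and 0.000102), by edgeR. The targets that fell in microglia were the Id genes, best known as targets of the BMP branch, with the cell-cycle inhibitor Cdkn1a. Id2 averaged 323 ± 67.2 CPM in microglia, 2440 ± 524 in astrocytes and 822 ± 180 in neurons, against 777 ± 149 in input, lower in microglia by 1.28 ± 0.27 and higher in astrocytes by 1.65 ± 0.27 (adjusted p = 0.000182 and 1.9e-05, edgeR). Id3 was lower in microglia by 2.97 ± 0.36 and higher in astrocytes by 0.88 ± 0.31 (adjusted p = 7.63e-08 and 0.0281, edgeR). Id1 was lower in all 3 sorts, by 3.47 ± 0.33 in microglia, 0.75 ± 0.28 in astrocytes and 1.83 ± 0.31 in neurons (adjusted p = 1.5e-09, 0.0375 and 7.47e-05, edgeR). In neurons Id3 was lower as well (-1.23 ± 0.34, adjusted p = 0.00763, edgeR). Cdkn1a was also lower in astrocytes (-2.35 ± 0.4, adjusted p = 3.57e-05) and in neurons (-1.85 ± 0.41, adjusted p = 0.00117), by edgeR.

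Genes that microglia are known to lose without TGF-beta signalling were all measured high in the CD11b+ cells. Of 12 listed, 11 were matched, and all 11 were higher in microglia than in input (median log2 fold change 2.2, beside 24.1% of all genes called higher). In astrocytes 2 were higher and 3 lower, and in neurons 4 were lower. Of the 11, 8 also belong to the microglia markers above, so that these are not independent of the check of the sort. The complement gene C1qa averaged 4250 ± 292 CPM in microglia, 343 ± 175 in astrocytes and 387 ± 247 in neurons, against 569 ± 6.94 in input, and the purine receptor P2ry12 3480 ± 1450, 452 ± 291, 522 ± 305 and 699 ± 62.2 CPM in the same order. Mertk, a receptor for phagocytosis that astrocytes also carry, averaged 1250 ± 202 CPM in microglia, 811 ± 209 in astrocytes and 219 ± 145 in neurons, against 308 ± 31.8 in input, higher than input in microglia (2.02 ± 0.33, adjusted p = 5.73e-06) and in astrocytes (1.4 ± 0.33, adjusted p = 0.0012) by edgeR.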

How the data were processed

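Per the labels' protocols, RNA was made into 3′ libraries with molecular identifiers (QuantSeq FWD), pooled and read as 65 bp single ends. The deposited values used are raw counts per gene. The authors' deposited library totals and scaling factors, a ratio per library, entered only an added alternative. The build GRCm38.p6 and the tools STAR, Subread 1.6.2 with featureCounts, and edgeR are listed with no roles, per the submitters' processing notes. Coordinates come from GENCODE M21, where 21950 of the 22058 gene identifiers were found.

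Counts were filtered with filterByExpr, scaled by TMM and fitted with edgeR 4.0.16 (R 4.3.3), 1 mean per group over all 16 libraries (common dispersion 0.0733). The 6 pairs of groups were compared by the two-sided quasi-likelihood F test, with Benjamini-Hochberg adjustment over 9091 genes and a threshold of 0.05. The adjusted p-values of the text come from that test unless DESeq2 1.42.0 is named. Errors after ± are SE of log2 fold changes, or SD of CPM over 4 libraries, and 95% intervals of log2 fold changes use the fit's t distribution. Shares and pooled ratios carry exact 95% intervals (Clopper-Pearson, or binomial on pooled counts with library sizes), which cover counting error only, as does the limit of 3 counts for a count of 0. The code was tested on simulated counts.

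Per the labels, the description of each library, input included, gives the number of its animal, and these numbers pair the libraries. Deviations from group means of libraries of 1 animal correlated between -0.0865 and 0.105. The fit without the pairing is reported, and the fit with animal as a block is an alternative. The 9 members, the pathway lists and the marker lists were chosen with earlier results of these data known. Named are the members and, per list, up to 4 called genes by mean CPM, up to 2 others, and the 3 genes most like each member among those with a mean of at least 10 CPM. Genes listed but not matched to the table were not analysed here. A comparison of the members' proteins was planned but not made.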

Additional observations from a re-analysis of the deposited data

Results flagged for a closer look

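In 2 groups of 4 libraries a member had 1 library flagged as far from the other 3. Chance flags about 1 group in 20 by this measure. Tgfb3 in microglia of animal 4 was at 0.982 CPM, which is 1 count, while the other microglia libraries were at 0. With 1 count and the rest at 0 the flag was fixed in advance, so that rate does not apply to it. Smad7 in astrocytes of animal 3 was at 79.9 CPM, while the other astrocyte libraries were at 26.6 to 29.5 CPM.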

How the results depend on the processing

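Of 26 member changes called, 15 were called under every alternative run (Tgfb1 against input and astrocytes, and Tgfb2, Nrros, Tgfbr1 and Tgfbr2 against all 3 other groups, in microglia, with Smad7 in microglia against astrocytes), and 0 of the 26 changed sign. Of 862 values of single members under alternatives, 760 kept side and direction, 48 lost and 29 gained the call, and 25 changed sign, all in changes that were not called. Where the report names no value, the cause was not tested.

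With RLE scaling, members called were 1 for neurons against input, beside 24.4% of all genes in that fit, against 3 members reported. For astrocytes against neurons they were 2, beside 28.7%, against 1 reported. With library totals alone they were 4 for astrocytes against input (2 reported), beside 40.7% of all genes, and 2 for astrocytes against neurons, beside 29.1%. Without the filter they were 2 for astrocytes against neurons, beside 19.3%. With animal as a block, neurons against input had 1, beside 20.9% of all genes. The other 5 comparisons kept their counts (5, 2, 7, 8 and 1), beside 50.2%, 31.5%, 46.8%, 41.8% and 25.5%. Against a 2-fold change (glmTreat) they were 4 for microglia against neurons, beside 23.3% of all genes in that test. They were 0 for astrocytes against input, neurons against input and astrocytes against neurons, beside 10.6%, 4.72% and 11.5%. The last 3 had 1, 1 and 0 at an unadjusted p under 0.05 in that test. DESeq2, which was run against no change rather than a 2-fold change, called 1, 1 and 1, beside 38.1%, 27.6% and 32.1% of all genes. Fits to the 2 groups compared gave 8 of 9 members for microglia against input (5 of 8 reported), beside 62.5% of all genes (53.9% reported). Tgfb3 entered that fit and was called lower (-4.73, adjusted p = 5.78e-05, edgeR). Smad2 (0.73, adjusted p = 0.00709) and Smad3 (0.69, adjusted p = 0.00449) gained the call in it, by edgeR. Members called for neurons against input were 1 in the fit to those groups, beside 28.4% of all genes. Without animal 5 they were 5 for microglia against neurons (8 reported), beside 34.8% of all genes (44.6% reported). For astrocytes against neurons they were 2 without that animal, beside 24.2%. Without astrocytes 3 and 5, with Tgfb3 also tested, they were 8 for microglia against input, 4 for astrocytes against input and 3 for astrocytes against neurons. Beside these stand 57.3%, 33.1% and 28.9% of all genes. DESeq2 gave 1 for astrocytes against input and 1 for neurons against input. Leaving out 1 library at a time, they ranged from 1 to 3 for astrocytes against input, beside 25.4 to 34.7% of all genes. The range was 1 to 3 for neurons against input, beside 15.8 to 24.4%, and 1 to 2 for astrocytes against neurons, beside 22.5 to 28.7%. The authors' totals and factors, an alternative added after seeing the data, moved none of the counts by more than 1.

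Values that changed sign were log2 fold changes near 0 or with few counts. Tgfb1 in neurons against input (0.25; leaving out 1 library, -1.19 to 0.92) was -0.12 without neurons 2 and -1.19 without neurons 4. Tgfb2 in astrocytes against input (-0.15; -0.26 to 0.01) was 0.07 without astrocytes 3 and 5 and 0.01 without astrocytes 4. Tgfbr2 in neurons against input (-0.05; -0.47 to 0.33) was 0.09 with RLE scaling and in the fit to 2 groups, 0.34 without animal 5, 0.05 without astrocytes 3 and 5, 0.06 without input 4, 0.33 without neurons 5 and 0.13 by DESeq2. Tgfbr1 in astrocytes against neurons (-0.12; -0.47 to 0.13) was 0.12 without astrocytes 2, 0.13 without astrocytes 4, 0.12 without neurons 2 and 0.11 without neurons 4. Nrros in astrocytes against neurons (0.03; -0.29 to 0.61) was -0.02 with RLE scaling and by DESeq2, -0.14 with library totals, -0.07 in the fit to 2 groups, -0.49 without animal 5, -0.42 without astrocytes 3 and 5, -0.09 without astrocytes 3, -0.17 without astrocytes 5, -0.14 without neurons 3 and -0.29 without neurons 5.

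Depth limits the low members: Tgfb1 rests on 4 counts in astrocytes and 10 in neurons, and Tgfb3 on 1, 7 and 5 counts in microglia, astrocytes and neurons.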
